A study of Homo sapiens with 12 samples.

Results

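Chromatin accessibility of HCT116 cells carrying EHF and CDX1 was compared with that of HCT116 cells carrying an empty vector, region by region. The regions were taken from a table of ATAC-seq counts with 30170 regions. Those on chromosomes 1 to 22 were kept, except the regions over the exons of EHF on chromosome 11 and of CDX1 on chromosome 5, where reads of the introduced copies pile up. This left 29449 of the 30170 regions, of which 29434 reached a CPM (counts scaled to a common library size) of 3 in at least 1 library and were tested. Regions were 150 to 761 bp long.

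HCT116 is an established human colorectal carcinoma cell line. The control cells (EV) were transfected with the empty vector and selected for resistance to geneticin (G418). The EHF+CDX1 cells were made by transfecting an EHF plasmid into an HCT116 line that already carried CDX1 from a retrovirus and had been sorted for GFP, and geneticin-resistant clones were then selected. Both lines therefore went through drug selection of clones, and the transduction and the sort were in EHF+CDX1 cells and not in EV cells. Each group had 3 libraries. The labels do not say whether these came from separate cultures, so p-values measure the spread between these libraries, which may be technical.

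EHF is an ETS-family transcription factor of epithelia and recognises a GGAA core. CDX1 is a caudal-type homeobox factor of the intestine which binds AT-rich sites, and its paralogue CDX2 is a master regulator of intestinal identity. ATAC-seq uses a transposase that inserts adapters into accessible DNA, so that a promoter or enhancer in use gives a cluster of reads, while DNA wrapped in closed chromatin gives few.

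The sequences of 6 changed regions are shown, so that the DNA behind the largest changes can be read. The first 4 were among the 5 with the highest fold changes of opened regions with at least 10 counts in each EHF+CDX1 library, and the last was among the 3 lowest of closed regions with at least 5 counts in each EV library. The CDX2 region was added after its values were seen, because CDX2 is the paralogue of the introduced factor. They were read 5′ to 3′ on the plus strand of hg38. Capitals mark every match on either strand to the CDX strings TTTATG and TTTATT, the ETS strings AGGAAGT and CGGAAGT, the FOX string TGTTTAC, the AP-1 string TGACTCA and the TEAD string GGAATGT, and overlapping matches run together.
GNGT1 intron, opened, chr7:93719631-93719781: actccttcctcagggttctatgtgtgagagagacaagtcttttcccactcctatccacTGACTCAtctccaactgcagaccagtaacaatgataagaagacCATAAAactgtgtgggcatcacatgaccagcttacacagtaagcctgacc
upstream of ZNF722, opened, chr7:63926316-63926489: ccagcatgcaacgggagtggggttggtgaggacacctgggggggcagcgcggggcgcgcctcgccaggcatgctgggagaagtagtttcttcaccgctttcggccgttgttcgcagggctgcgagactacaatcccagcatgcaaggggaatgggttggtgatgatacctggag
distal 4q, opened, chr4:189233876-189234049: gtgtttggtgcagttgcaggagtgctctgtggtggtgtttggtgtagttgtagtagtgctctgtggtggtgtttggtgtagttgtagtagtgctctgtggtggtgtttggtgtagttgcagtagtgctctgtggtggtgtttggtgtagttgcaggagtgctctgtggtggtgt
distal 13q, opened, chr13:70856865-70857015: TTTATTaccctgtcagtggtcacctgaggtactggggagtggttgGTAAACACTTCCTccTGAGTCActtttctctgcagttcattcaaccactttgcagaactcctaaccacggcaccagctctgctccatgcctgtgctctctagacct
CDX2 exon, opened, chr13:27960837-27960987: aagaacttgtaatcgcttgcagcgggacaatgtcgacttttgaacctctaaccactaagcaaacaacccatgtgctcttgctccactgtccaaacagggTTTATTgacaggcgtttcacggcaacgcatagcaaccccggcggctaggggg
4q near MFAP3L, closed, chr4:169899296-169899454: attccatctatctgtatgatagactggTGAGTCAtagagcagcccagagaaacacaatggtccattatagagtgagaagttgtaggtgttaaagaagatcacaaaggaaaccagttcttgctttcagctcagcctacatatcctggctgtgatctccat

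Of these sequences, those in the GNGT1 intron, on distal 13q and in the CDX2 exon held 1 CDX match each. The distal 13q region also held 1 FOX, 1 ETS and 1 AP-1 match close together, with the FOX and ETS matches sharing a base. The GNGT1 region and the closed region near MFAP3L held 1 AP-1 match each, and the sequences upstream of ZNF722 and on distal 4q held no match. A match shows that these letters are present and is not a measurement of binding.

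Depth differed between the libraries. Total counts ran from 567366 to 1033248 in EV and from 1543391 to 2137259 in EHF+CDX1 libraries. After scaling, EHF+CDX1 replicate 2 had an effective total of 4430130 counts, against 1684560 and 1203980 for replicates 1 and 3 and 665167 to 1447680 for EV. Of the tested regions that do not match mitochondrial DNA, 0.116% had no count in EHF+CDX1 replicate 2, against 8.2% to 19.0% in EV libraries. A count of 3 per library was taken as the floor, which is 2.07 to 4.51 CPM in EV and 0.677 to 2.49 CPM in EHF+CDX1. The epithelial identity of the line was visible in both groups. At 18 regions within 1 kb of starts of EPCAM, ESRP1, KRT8, KRT18, KRT19, CLDN3, CLDN4 and CLDN7 the summed level was 67.7 to 85.6 CPM in EV and 110 to 138 CPM in EHF+CDX1 libraries, and none of the 18 was called.

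Accessibility changed at 733 regions (adjusted p under 0.05, edgeR quasi-likelihood test). The share called over the whole table was 2.57%. Of the 733 regions, 514 were higher in EHF+CDX1 cells (opened; 1.79% of the whole table was called higher) and 219 were lower (closed; 0.779%). Opening mostly started at or below the floor. In 454 of the 514 opened regions every EV library held at most 3 counts, and in 168 of them all EV libraries were at 0. All 219 closed regions had more than 3 counts in an EV library. In 19 of them every EHF+CDX1 library held 3 counts or fewer. A count of 3 is on average 3.29 CPM in EV and 1.65 CPM in EHF+CDX1, so counts of the groups are not on the same scale. The median count per library in opened regions was 0 in EV and 12 in EHF+CDX1, and in closed regions 12 and 7. By CPM, the median of the mean level in closed regions was 11.8 in EV and 3.30 in EHF+CDX1. The CPM of the groups did not overlap in 488 opened and 196 closed regions, against 22% of all regions in the table.

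Many calls rested on 1 library. EHF+CDX1 replicate 2 had the highest count of its group in 509 of the 514 opened regions and the highest CPM in 400. Regions over the introduced exons took 9.99% of the counts of this library, against 61.1% and 60% in replicates 1 and 3, and the part of this difference in the calls was not tested. Without it, 26 opened and 14 closed regions were still called. The balance of directions also moved with the method: scaling by library size alone called 18 opened and 4 closed regions, and DESeq2 called 34 and 37. In 26 closed regions the sequence matched mitochondrial DNA. Such regions took 65.0% to 73.8% of all counts in EV and 21.4% to 36.1% in EHF+CDX1 libraries, and their part in the 26 calls was not tested. The other 193 closed regions had no such match. Intervals and the floor given below cover counting error only.

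The regions of strongest opening included starts of developmental regulators. The start of PAX6, a paired-box factor of the eye, brain and endocrine pancreas that also acts in enteroendocrine cells, held 0 counts in each EV library and 12, 18 and 14 counts in EHF+CDX1 replicates 1, 2 and 3. It was at least 2.31-fold higher (adjusted p = 0.00434) and was still called without EHF+CDX1 replicate 2. The start of TLE4 (chr9:79571558-79571894), a Groucho-type co-repressor, held 0, 2 and 1 counts in EV and 53, 139 and 29 in EHF+CDX1. Its mean rose from 0.962 ± 0.835 to 29.0 ± 4.23 CPM (SD, n = 3 libraries each), a pooled ratio of 30.4 with a counting interval of 10.3 to 149 (adjusted p = 3.43e-06). All EHF+CDX1 libraries lay far above all EV libraries at TLE4, and the call held when any 1 of the 6 libraries was left out. The KCNV1 start, of a modulatory potassium channel subunit, opened at a pair of neighbouring regions, with 3, 2 and 2 counts in EV and 56, 96 and 12 in EHF+CDX1 at the one of higher coverage (pooled ratio 9.68, interval 4.59 to 24.5, adjusted p = 0.000162). Both KCNV1 regions were called without EHF+CDX1 replicate 2.

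Zinc-finger genes stood among the most strongly opened regions. At the ZNF736 start (chr7:64313820-64313987) EV libraries held 1, 0 and 0 counts and EHF+CDX1 libraries 29, 48 and 18, a pooled ratio of 39.3 with an interval of 6.88 to 1566 (adjusted p = 7.1e-05). A region 72 kb upstream of ZNF722 (chr7:63926316-63926489) held 0, 0 and 1 counts in EV and 38, 120 and 15 in EHF+CDX1 (pooled ratio 71.5, interval 12.7 to 2839, adjusted p = 1.59e-07). ZNF722 had 3 opened regions and ZNF736 had 2, among 23 genes with more than 1. In all, 8 regions within 1 kb of starts of genes named ZNF opened and 0 closed. They belonged to ZNF736 on chromosome 7, to ZNF140 (2 regions) on chromosome 12, and to ZNF429, ZNF486, ZNF260, ZNF253 and ZNF571 on chromosome 19. This is 2.20% of the 363 such regions, against 1.79% called higher over the whole table and 93 opened among the 11102 tested regions at any start. The median log2 fold change of the 363 was 0.08, and the group was chosen after its values were seen.

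The other regions of the strongest set lay far from protein-coding starts. A region on distal 4q (chr4:189233876-189234049), 707 kb from the nearest start, held 0, 1 and 0 counts in EV and 53, 76 and 16 in EHF+CDX1, and had 4 near-identical copies elsewhere in hg38, so its counts are uncertain, although the study kept uniquely mapped reads. The distal 13q region shown above, 748 kb from the nearest start, held 0, 1 and 0 counts in EV and 15, 105 and 10 in EHF+CDX1, and it was not called without replicate 2. In an intron of GNGT1, which encodes a G-protein subunit of photoreceptors, EV libraries had no count and EHF+CDX1 libraries held 10, 26 and 11 (at least 2.12-fold higher, adjusted p = 0.00589). A region 245 kb upstream of SLC39A10, a zinc transporter, rose from 2, 1 and 0 counts to 31, 69 and 18 (pooled ratio 16.3, interval 5.43 to 79.9) and was called whichever of the 6 libraries was left out. The remaining regions of the set lay 182 kb from PAWR and 153 kb from VEGFA, with 0, 1 and 0 against 11, 47 and 11 counts and 0, 0 and 1 against 11, 43 and 10.

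Further regions were called without EHF+CDX1 replicate 2, and those named here were picked after their values were seen. The start of RASEF, a Rab-family GTPase gene, held 0 counts in each EV library and 13, 69 and 8 in EHF+CDX1 (at least 3.03-fold higher, adjusted p = 0.000162). An intron of FOXP2, a forkhead factor of brain and lung, held 2, 3 and 0 counts against 21, 54 and 12, a pooled ratio of 7.19 with an interval of 2.97 to 22.7. An intron of SEMA3A, which encodes a secreted axon guidance cue, held 2, 1 and 2 against 27, 81 and 17. In each of them every EHF+CDX1 library lay above every EV library. Among genes with 2 opened regions, GOLIM4, of a Golgi membrane protein, had one 92 kb from its start with 0, 4 and 1 counts against 29, 92 and 21 (log2 fold change 3.47 ± 0.61 SE, adjusted p = 8.75e-05). MACC1, a regulator of MET expression in colon cancer, had an intronic region with 3, 1 and 0 counts against 20, 37 and 10 and one near its start with 1, 1 and 3 against 33, 81 and 8 (adjusted p = 0.0123 and 0.00141).

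Closed regions had smaller changes in counts. The lowest value belonged to a region of chromosome 21, far from any protein-coding start, with 57, 58 and 32 counts in EV and 4, 7 and 0 in EHF+CDX1 libraries (log2 fold change -5.01 ± 0.50, adjusted p = 1.14e-14), and 1 near-identical copy lies elsewhere in hg38. A region on 4q, 104 kb from the start of MFAP3L, fell by 3.05 on the log2 scale, from 6, 7 and 6 counts to 1, 2 and 2 (adjusted p = 0.00862). A region upstream of SH3RF2, a gene for a RING-type ubiquitin ligase, fell from 11, 14 and 6 to 3, 4 and 2 counts (log2 fold change -2.93 ± 0.62, adjusted p = 0.00252). The start of IER3IP1 on chromosome 18, an endoplasmic reticulum protein, held 11, 14 and 9 counts in EV and 1, 11 and 3 in EHF+CDX1 (-2.50 ± 0.56, adjusted p = 0.0044). It was the single region of the 10 within 1 kb of a start. By CPM it fell from 11.8 ± 1.95 to 1.86 ± 1.09 (SD, n = 3), and the groups did not overlap. The raw counts did, through the 11 counts of EHF+CDX1 replicate 2, the deepest library after scaling. An exonic CMIP region fell by 2.79, and a PLEKHA1 region on distal 10q by 2.56. Near DGCR6, 2 regions closed, with 42, 41 and 18 counts against 11, 35 and 2 at one of them (-2.49 ± 0.40, adjusted p = 1.16e-05), and they have 3 and 2 copies elsewhere in hg38.

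At regions of high coverage the changes were smaller. Among the opened regions of highest mean level were the starts of the adhesion molecule ALCAM, the zinc transporter SLC39A10, the Krüppel-like factor KLF5 and the phospholipid scramblase PLSCR1. Their mean levels were 10.2 to 13.3 CPM in EV and 26.6 to 33.9 CPM in EHF+CDX1, with log2 fold changes of 1.22 to 1.42 (adjusted p = 0.027 to 0.0496). Each had all EHF+CDX1 libraries above all EV libraries, and none was called without replicate 2. The 5 closed regions of highest level all matched mitochondrial DNA. The next 5, named after their values were seen, lay near PTPRN2, BICC1, B3GAT1, KIAA1958 and MKI67 at 46.4 to 116 CPM in EV and 19.3 to 30.9 CPM in EHF+CDX1, and all but the KIAA1958 region lay over 100 kb from the start of that gene. At the MKI67 region the groups overlapped by CPM.

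**Figure D1:**
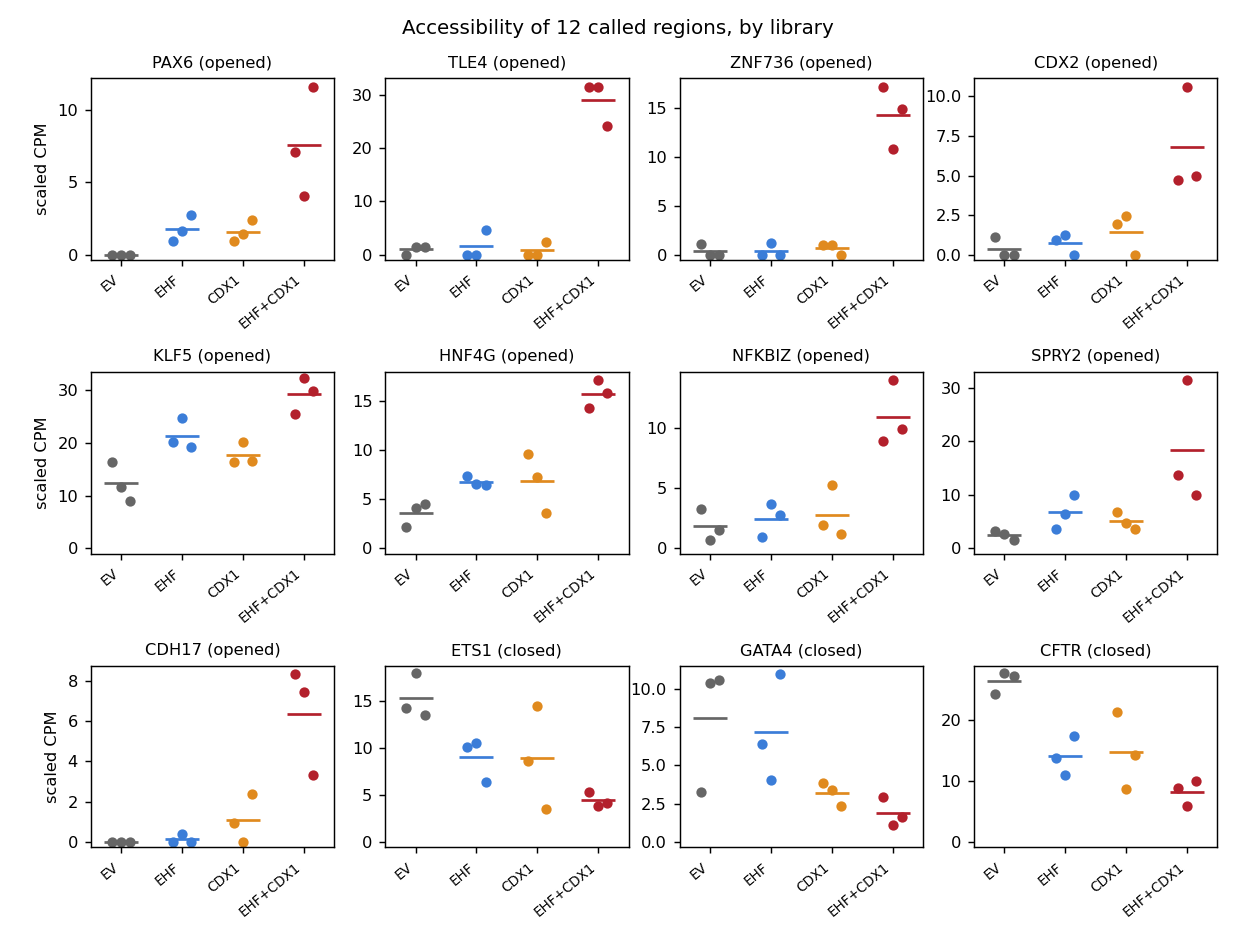
Scaled CPM of 12 called regions in the 3 libraries (points, replicates 1 to 3 from left to right) of each line, with the line mean (bar). The EHF+CDX1 libraries lie above all EV libraries in the 9 opened panels (at the gene's start for KLF5) and below them in the ETS1, GATA4 and CFTR panels.

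Regulators of intestinal identity moved in both directions. Of 36 genes for intestinal transcription factors, 31 had an assigned region (the nearest protein-coding start within 100 kb), 99 regions in all. Of these 4 opened and 2 closed, 4.04% and 2.02% against 1.20% and 0.630% of all 22840 assigned regions. CDX2 had 5 assigned regions. One of them, in a CDX2 exon 8.4 kb into the gene (chr13:27960837-27960987), held 1, 0 and 0 counts in EV and 8, 47 and 6 in EHF+CDX1 (pooled ratio 25.2, interval 4.36 to 1012, adjusted p = 0.0174). The start of CDX2 held 5, 6 and 2 counts in EV and 12, 63 and 7 in EHF+CDX1, and was not called (log2 fold change 1.17 ± 0.53, adjusted p = 0.206). All 5 CDX2 regions had positive fitted changes, from 1.17 to 4.13.

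KLF5, a crypt and epithelial progenitor factor, opened at its start (chr13:73058758-73059029), with 15, 17 and 6 counts in EV and 43, 143 and 36 in EHF+CDX1 (log2 fold change 1.22 ± 0.37, adjusted p = 0.0496), and 84 kb upstream in an exon of PIBF1, with 0, 2 and 0 against 8, 21 and 15 (pooled ratio 9.09, interval 2.37 to 77.4, adjusted p = 0.0414). The other 7 KLF5 regions were not called. CDX2 and KLF5 both lie on chromosome 13, where the median over all regions was 0.98. HNF4G, a nuclear receptor of the enterocyte, opened near its start, from 2, 6 and 3 to 24, 76 and 19 counts (2.10 ± 0.50, adjusted p = 0.00879), and all EHF+CDX1 libraries were above all EV libraries. At its paralogue HNF4A the region at the start held 1, 1 and 1 counts in EV and 5, 21 and 8 in EHF+CDX1 (pooled ratio 4.68, interval 1.47 to 23.8, adjusted p = 0.238). At ELF3, an epithelial ETS factor, 0 of 8 regions were called, with adjusted p of 0.0984 or more, and 7 of the 8 had positive values. Of the closed regions, one lay in an intron of GATA4, a zinc-finger factor of the proximal intestine. Its counts were 3, 15 and 7 in EV against 5, 5 and 2 in EHF+CDX1, or 8.06 ± 4.13 against 1.92 ± 0.947 CPM (-2.17 ± 0.63, adjusted p = 0.0364). None of these 6 calls held without EHF+CDX1 replicate 2.

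Genes of the absorptive cell had calls in both directions. The enterocyte and brush-border list had 98 assigned regions, of which 3 opened and 1 closed (3.06% and 1.02%, against 1.20% and 0.630% of all assigned regions). An intron of CDH17, the liver-intestine cadherin, held no count in EV and 14, 33 and 4 counts in EHF+CDX1 (at least 1.93-fold higher, adjusted p = 0.0115). GPA33, an intestinal cell-surface antigen, opened in an intron, from 1, 4 and 1 to 9, 68 and 12 counts (2.41 ± 0.65, adjusted p = 0.0222). A region 19 kb from the start of the adhesion molecule CEACAM6 rose from 2, 1 and 0 to 10, 45 and 5 counts (pooled ratio 8.26, interval 2.70 to 41.2, adjusted p = 0.0446). A region 23 kb upstream of CFTR, the chloride channel of the crypt, closed, from 22, 40 and 18 to 15, 26 and 12 counts, with means of 26.3 ± 1.87 and 8.25 ± 2.13 CPM (-1.74 ± 0.38, adjusted p = 0.00389). In VIL1, the actin bundler of microvilli, 0 of 4 regions were called. An intronic one held no count in EV and 5, 33 and 2 in EHF+CDX1 (adjusted p = 0.0534), and the one nearest the start held 2, 0 and 1 against 9, 28 and 0 (adjusted p = 0.317). KRT20 had 3 regions, all 17 to 20 kb upstream, with adjusted p from 0.324 to 0.778. None of the enterocyte calls held without EHF+CDX1 replicate 2. In the goblet and Paneth list (25 regions) and the keratin list (22 regions) 0 regions were called, and in the enteroendocrine list (20 regions) the PAX6 start opened.

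Epithelial adhesion and motility genes gave isolated calls. Of all assigned regions 1.20% opened and 0.630% closed, against 0.699% in each direction for the junction and polarity list. The shares opened were 1.83% in the migration list, 1.22% in that for epithelial to mesenchymal transition and 1.09% in the Wnt and stem-cell list. Of the Wnt and stem-cell list 1.09% closed. Of 143 junction and polarity regions, an intronic DSP region opened (desmoplakin of the desmosome; 0, 0 and 0 against 6, 29 and 9 counts, at least 1.78-fold higher, adjusted p = 0.0221), and 1 region closed. In the migration list of 109 regions the start of PTK2, the focal adhesion kinase, and an intron of MET, the hepatocyte growth factor receptor, opened, with adjusted p of 0.0298 and 0.0458. The list for epithelial to mesenchymal transition had 1 opened region of 82, 93 kb upstream of FN1, at the edge of the threshold (adjusted p = 0.0499). In the Wnt and stem-cell list of 92 regions, a region 78 kb from FZD5 opened (adjusted p = 0.0395) and the start of TCF7L1, a Wnt-pathway repressor, closed from 6, 9 and 8 to 2, 6 and 4 counts (-2.15 ± 0.63, adjusted p = 0.0413).

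Several signalling and factor lists held 1 call each, and the inflammatory list held 3. The shares opened were 3.61% for inflammatory, 2.78% for AP-1, 1.22% for Hippo, 1.10% for nuclear receptor and 0.571% for receptor kinase regions. Over all assigned regions 1.20% opened and 0.630% closed. Of the regions of ETS-family genes 1.64% closed. NFKBIZ, an inducible IκB-family protein of epithelia, had 3 opened regions at or near its start, the one of highest coverage with 4, 4 and 2 counts in EV and 25, 74 and 13 in EHF+CDX1 (2.09 ± 0.52, adjusted p = 0.0133). They were the calls among 83 regions of the NF-κB and inflammatory list. NR4A2, an orphan nuclear receptor, rose from 2, 2 and 2 to 25, 95 and 10 counts (pooled ratio 8.95, interval 4.00 to 24.8, adjusted p = 0.000664). SPRY2, an inhibitor of receptor tyrosine kinase signalling on chromosome 13, rose from 3, 4 and 1 to 23, 139 and 12 (2.85 ± 0.53, adjusted p = 0.000291). JUNB, of AP-1, and YAP1, the Hippo co-activator, rose from 4, 1 and 0 to 12, 44 and 14 and from 2, 4 and 1 to 16, 45 and 18 counts (2.45 ± 0.67 and 2.26 ± 0.58, adjusted p = 0.025 and 0.0173). In each of these genes all EHF+CDX1 libraries exceeded all EV libraries by CPM. Each of NR4A2, SPRY2, JUNB and YAP1 was the single call of its list, of 91 nuclear receptor, 175 receptor kinase, 36 AP-1 and 82 Hippo regions, and none of these calls held without EHF+CDX1 replicate 2. An intron of ETS1 closed, from 13, 26 and 9 to 9, 17 and 5 counts, or 15.3 ± 2.37 to 4.44 ± 0.794 CPM (-1.82 ± 0.45, adjusted p = 0.0131), the call among 61 regions of ETS-family genes. Upstream of the endogenous EHF gene, 20 kb from its start and outside the removed window, a region rose from 0, 4 and 0 to 12, 56 and 3 counts (2.61 ± 0.76, adjusted p = 0.0389). The groups overlapped there by CPM, and the call did not hold without EHF+CDX1 replicate 2. Other regions assigned to EHF had adjusted p of 0.835 and 0.790. The regions 5.0 and 5.5 kb upstream of CDX1 had adjusted p of 0.749 and 0.729.

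Metabolic lists held a few calls in both directions. In the fatty acid list (86 regions) 3 opened and 2 closed (3.49% and 2.33%, against 1.20% and 0.630% of all assigned regions). CROT, the peroxisomal carnitine octanoyltransferase, opened at its start, from 2, 1 and 0 to 14, 64 and 12 counts (pooled ratio 12.4, interval 4.11 to 61.2, adjusted p = 0.00533), and 26 kb upstream (0, 0 and 0 against 8, 34 and 2). DECR1, a dienoyl-CoA reductase of mitochondrial β-oxidation, opened at its start from 3, 12 and 2 to 35, 72 and 18 (1.67 ± 0.44, adjusted p = 0.0182). Regions at ELOVL5 and ACSL5, of fatty acid elongation and activation, closed (-3.35 ± 0.87 and -1.59 ± 0.42, adjusted p = 0.018 and 0.0201). In the xenobiotic list (70 regions) regions of UGT2B15, MGST1 and the efflux pump ABCB1 opened and a pair of regions upstream of ABCC2, on 10q, closed, with adjusted p from 0.0186 to 0.0472. The shares of this list were 4.29% opened and 2.86% closed. The reads near UGT2B15, MGST1 and one of the ABCC2 regions are uncertain, with 1, 13 and 169 near-identical copies elsewhere. In the cell cycle list (103 regions) the start of E2F7, a repressor of E2F targets, opened, from 6, 8 and 6 to 28, 92 and 30 counts (1.60 ± 0.42, adjusted p = 0.0187) and a region 38 kb from its paralogue E2F8 closed (-2.99 ± 0.76, adjusted p = 0.0152). This was 0.971% of the list in each direction, near the shares of all assigned regions. LTBP1 in the TGF-β and BMP list and MEF2C in the muscle list had 1 closed region each (1.02% and 4.35% of the list). In the oxidative phosphorylation, interferon, p53, Notch, hypoxia, unfolded protein, chromatin regulator, HOX, blood cell, fibroblast and endothelial, and hepatocyte lists 0 regions were called.

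The largest number of calls in a list fell to neuronal and synaptic genes. Of 199 regions assigned to 66 genes, 11 opened and 5 closed (5.53% and 2.51%, against 1.20% and 0.630% of all assigned regions), in the list with the most regions. The opened regions included those of SYT1, CACNA2D1, LRRTM4, GRIK2, LRRC4C, NLGN1, CTNNA2, CDH18 and EPHA3, and the closed ones belonged to CDH13 (2 regions), GRIA1, GRIN2B and NTM. A region 64 kb upstream of CACNA2D1, a calcium channel subunit, held 0, 0 and 0 counts in EV and 17, 52 and 4 in EHF+CDX1 (at least 2.55-fold higher, adjusted p = 0.00139). The SYT1 start, of the synaptic vesicle calcium sensor, held 0, 0 and 0 against 10, 72 and 4, but its sequence has 193 near-identical copies in hg38 and that of the opened NLGN1 region has 2. An intron of LRRTM4 held 0, 0 and 0 against 9, 63 and 1 counts and one of GRIK2 0, 1 and 0 against 10, 51 and 9. At these 4 regions replicate 2 held most of the counts, and none of the 16 calls held without it. EV accessibility of this list was low: no EV library held more than 3 counts in 41.2% of its regions, against 19.7% of all assigned regions. At the 25 regions within 1 kb of starts of the list, of which the SYT1 start was called, the summed level was 93.3 to 151 CPM in EV and 98.0 to 168 CPM in EHF+CDX1 libraries. The summed levels at muscle, blood cell, and fibroblast and endothelial starts also overlapped between the groups, and at the 1 hepatocyte start they were 0 to 1.5 and 2.49 to 4.16 CPM.

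Lists of intestinal and epithelial genes had the highest medians. The median log2 fold change of all assigned regions was 0.15. It was 1.25 for keratins, 1.23 for goblet and Paneth genes, 1.17 for enterocyte genes, 1.06 for intestinal transcription factors and 1.0 for epithelial markers, and these 5 medians stayed positive, at 0.38 or more, in every alternative run. With regions at 0 in all EV libraries set to their bound, the enterocyte median was 0.80 and that of intestinal transcription factors 0.90. Between 45.5% and 52.0% of the regions of the keratin, goblet, enterocyte and transcription factor lists were at the floor in EV. Among regions above the floor the medians were 0.70, 0.22, 0.08 and 0.30, and that of epithelial markers 0.61, against -0.04 for all assigned regions. Neuronal genes had a median of 0.42 over all regions and -0.51 above the floor. Epithelial markers kept 88.5% of their above-floor regions higher in EHF+CDX1 cells, against 47.7% of all. No region of the keratin list was called at this depth, so this median describes values that did not pass the test one by one. The Wnt, enteroendocrine, fatty acid, p53, TGF-β, Hippo, hypoxia, blood cell and mesenchymal transition medians changed sign with the scaling. Quantile normalisation moved the median of all regions from 0.18 to 0.01.

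**Figure D2:**
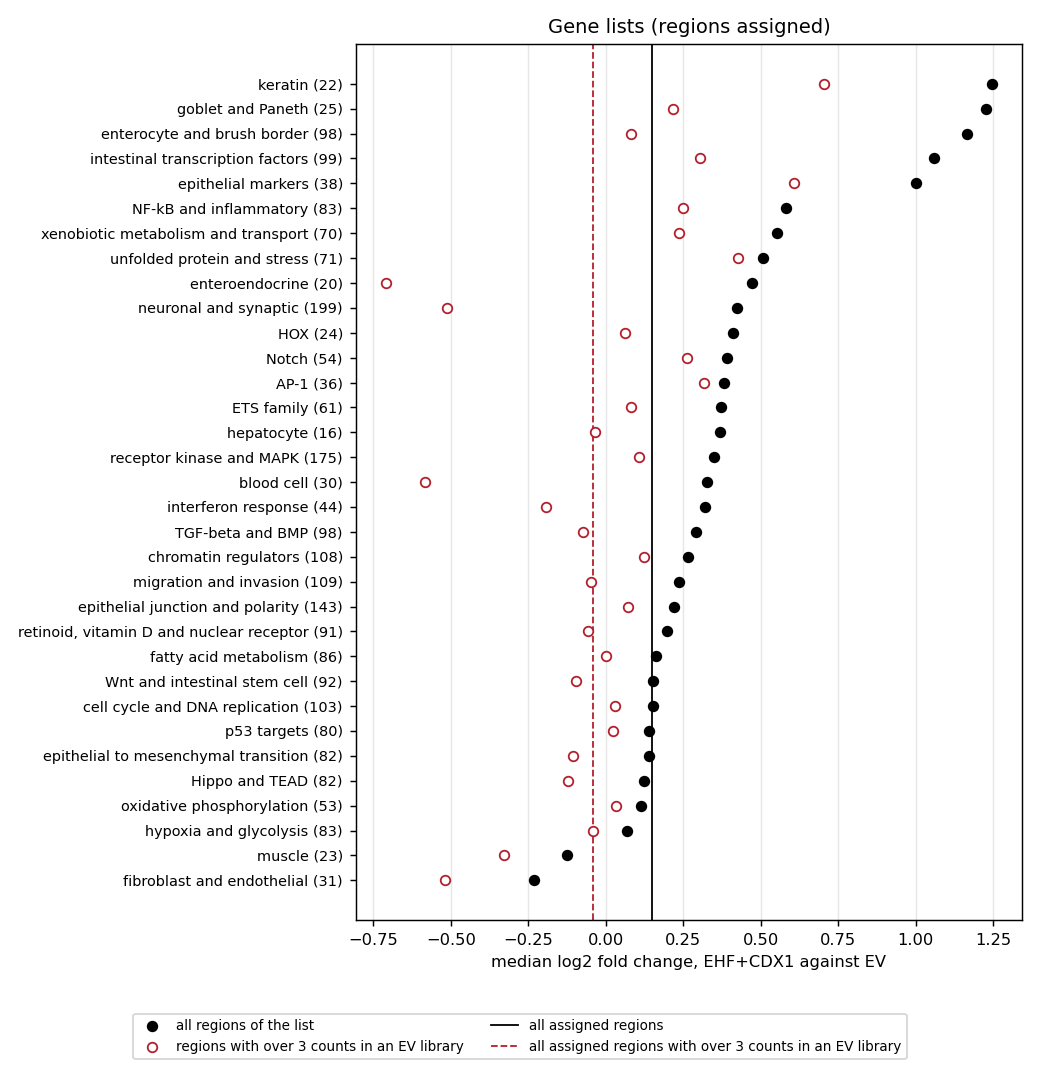
Median log2 fold change of each gene list over all its assigned regions (filled) and over those with more than 3 counts in an EV library (open); the number of regions is in parentheses and the lines give all assigned regions. Keratin, goblet, enterocyte and intestinal transcription factor lists are highest over all regions, at 1.06 to 1.25, and lie at 0.08 to 0.70 without the floor regions.

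Changed regions lay away from gene starts. Within 1 kb of a protein-coding start lay 18.1% of opened regions (95% Wilson interval 15% to 21.7%) and 6.74% of closed regions without a mitochondrial match (3.98% to 11.2%), against 38.3% of regions not called. Over 100 kb from any start lay 46.7% of opened and 32.6% of closed regions, against 21.9%. Closed regions were most often 10 to 100 kb away (45.1%, interval 38.2% to 52.1%) and in introns (49.2%). The 93 opened regions at starts compare with 240 that had no start within 100 kb. The 274 assigned opened regions belonged to 249 genes and the 144 assigned closed regions to 135, and 1 gene had both. Opened regions were also AT-richer, with a median GC content of 48.3% against 56.3% in regions not called, and the share that opened fell from 3.42% at a GC content of up to 40% to 0.777% above 70%.

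**Figure D3:**
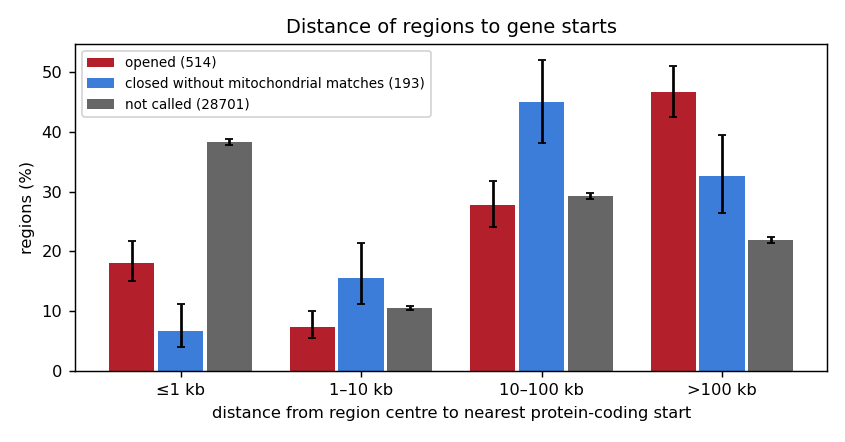
Share of opened, closed (without mitochondrial matches) and not called regions by distance from the region centre to the nearest protein-coding start, with 95% Wilson intervals as error bars; the number of regions is in parentheses. Opened regions peak beyond 100 kb (46.7%) and closed regions at 10 to 100 kb (45.1%).

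Short factor-binding strings were distributed differently between opened and closed regions. The CDX strings occurred in 30.7% of opened regions (interval 26.9% to 34.9%), in 11.9% of closed regions without mitochondrial matches and in 15.2% of regions not called. These strings are AT-rich, and within a GC content of 40% to 50% the shares were 41.4%, 25.7% and 28.6%, with closed regions here including mitochondrial matches. The FOX string, of forkhead factors such as the FOXA proteins, occurred in 13.6% of opened regions (10.9% to 16.9%), 1.04% of closed and 4.47% of regions not called. Its share in opened regions was 11.6% at 40% to 50%, 17.2% at 50% to 60% and 17.6% at 60% to 70% GC content, against 5.96%, 4.85% and 4.02% of regions not called. The ETS strings occurred in 11.1% of opened regions and 10.4% of regions not called, and in 5.70% of closed regions. CDX and ETS strings together were in 3.11% of opened regions and 1.24% of regions not called, and CDX and FOX strings together in 4.47% and 0.826%. The higher share of CDX strings alone in opened regions raises such joint shares. Whether the strings occur together beyond their single shares was not tested, and the joint shares were not split by GC content.

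Closed regions carried other strings. AP-1 matches were in 27.5% of closed regions without mitochondrial matches (21.7% to 34.2%), 17.7% of opened regions and 15.3% of regions not called. TEAD matches were in 10.4% (6.81% to 15.5%), 3.89% and 3.31%. The difference for TEAD was seen at each GC range up to 70%, while that for AP-1 was seen at 50% to 60% and not at 40% to 50%, with 34.9% of closed regions against 19.3% of regions not called at 50% to 60% and 27% against 27.2% at 40% to 50%. At a GC content of up to 40%, 0 of 21 closed regions held an AP-1 match, against 21.3% of regions not called, and at 60% to 70% the shares were 11.5% and 6.01%. Matches of the CDX strings lay within 25 bp of the region centre in 43.4% of cases in opened regions and in 32.0% in regions not called, and FOX matches in 47.9% and 38.7%. Strings of 7 other factors were counted as well, CAAAGTCCA for HNF4 and GTTAATNAT for HNF1 among them. The string used for GATA factors was AGATAA. That used for RUNX factors was TGTGGTT, and for the insulator factor CTCF it was CCAGGGGGC. For KLF factors it was GGGCGGG, and the CRE string was TGACGTCA. GATA strings were in 11.3% of opened regions and 5.96% of regions not called, HNF4 in 1.95% and 0.791%, and HNF1 in 2.33% and 0.693%. At a GC content of 40% to 50% the GATA shares were 14.9% and 11.8%, and at 50% to 60% 6.56% and 5.04%. In these ranges those of HNF4 were 1.395% and 1.496%, and 4.10% and 0.842%, and those of HNF1 3.72% and 1.20%, and 0% and 0.454%. KLF strings went the other way, at 9.34% and 21.6%, as did CTCF at 0.389% and 1.34% and CRE at 0.195% and 1.27%. RUNX strings were in 4.28% and 3.78%, and in 7.25% of closed regions without mitochondrial matches. No test was run on these shares.

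**Figure D4:**
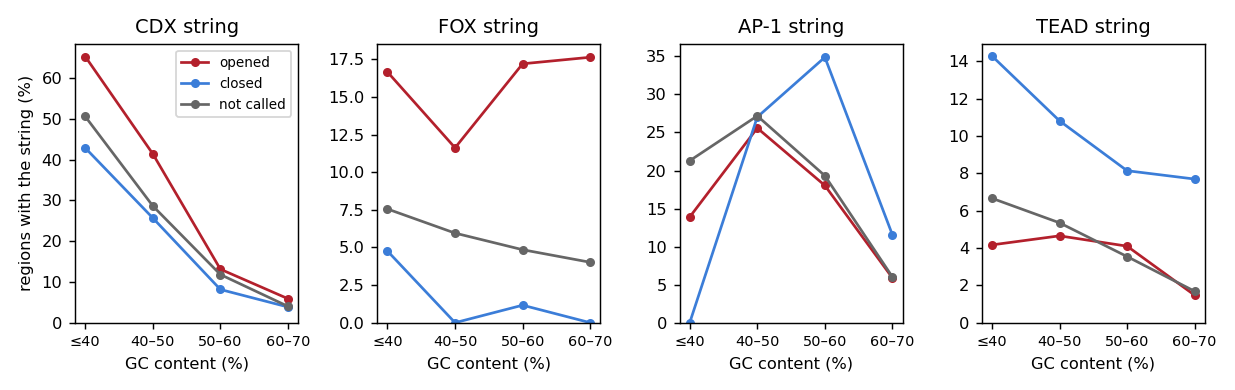
Share of opened, closed and not called regions with a CDX, FOX, AP-1 or TEAD string, by GC content of the region. The FOX line of opened regions lies above the others at every GC range shown, at 11.6% to 17.6%, and the TEAD line of closed regions does so at 7.69% to 14.3%.

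The direction of change depended on where a region lay along the chromosomes. Chromosome 13 had the highest median log2 fold change, 0.98 over 1255 regions, with 66 opened (5.26%) and 3 closed. It took 1.91% to 2.24% of the counts in tested regions without mitochondrial matches in EV libraries and 2.69%, 4.80% and 2.63% in EHF+CDX1 replicates 1, 2 and 3. All EHF+CDX1 libraries were thus higher, replicate 2 most of all (exact permutation test, two-sided, p = 0.1, the smallest that 3 against 3 libraries allow). The shift was 0.55 at starts and 1.40 at regions 10 kb or more from a start, and over the chromosome it was 0.33 without EHF+CDX1 replicate 2. Chromosome 10 moved the other way, with a median of -0.50 over 1289 regions, 2 opened and 35 closed, and a share of 5.09% to 5.58% in EV and 3.57% to 4.41% in EHF+CDX1 libraries. Chromosome 16 had a median of -0.42, with 0 opened and 12 closed of 761 regions.

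Within chromosomes the shift came in long stretches. On chromosome 10 the median was -0.29 in the first 20 Mb, -0.05 at 60 to 80 Mb, -0.66 at 100 to 120 Mb and -0.84 beyond 120 Mb, where 12 of 177 regions closed and 0 opened. The ACSL5 and PLEKHA1 regions lie in the last pair of stretches, and the ABCC2 regions just before, at a median of -0.42. On chromosome 3, the 20 Mb stretches up to 80 Mb had medians of -0.35 to -0.12 with 3 opened regions. Those at 100 to 120, 140 to 160 and 160 to 180 Mb had 0.95, 1.0 and 1.03 with 16, 17 and 20 opened and 0 closed. NFKBIZ, ALCAM, PLSCR1 and GOLIM4 lie in these. The stretch at 120 to 140 Mb broke the run, with a median of 0.14 and 3 opened and 3 closed regions. SYCE1L, CDH13 and CMIP, with 5 closed regions in all, lie on chromosome 16. Chromosome 2 at 180 to 200 Mb had a median of 1.21 with 23 opened regions, and chromosome 13 at 60 to 80 and 80 to 100 Mb had 1.59 in both, with 24 opened each, and KLF5 and SPRY2 lie there. CDX2 lies at 20 to 40 Mb, where the median was 0.69. The stretches named here with 16 or more opened regions kept their sign without EHF+CDX1 replicate 2, at 0.45 to 0.76. That beyond 120 Mb of chromosome 10 did so at -0.71. Among regions above the EV floor they were 0.41 to 0.49 and -0.87. The shift was also present at starts, at 0.44 to 0.84 and -0.60. A change in the number of DNA copies and a change in accessibility cannot be told apart from these counts, and for genes in these stretches the fold changes include the shift of their surroundings.

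**Figure D5:**
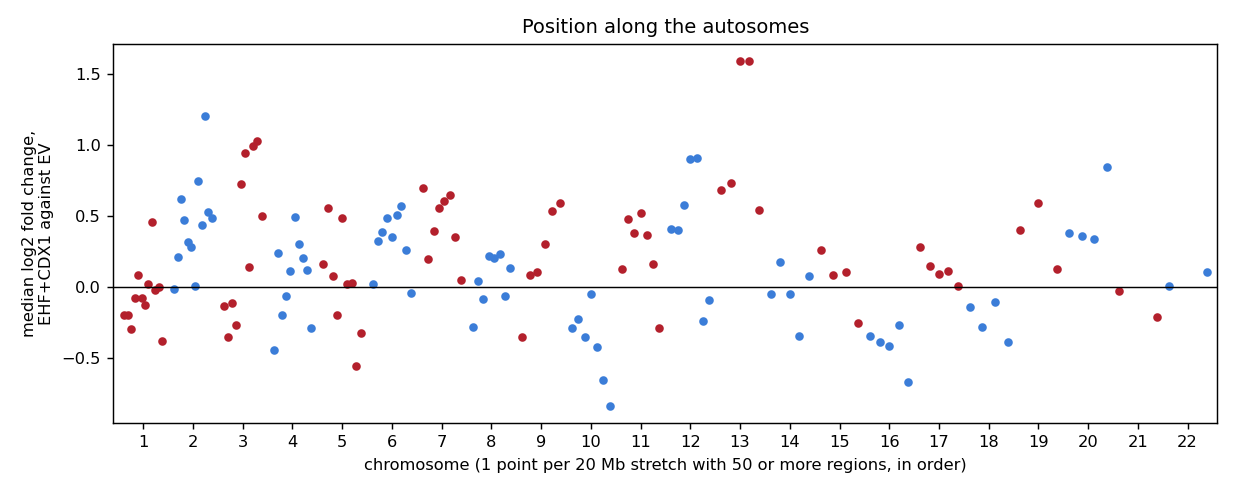
Median log2 fold change (EHF+CDX1 against EV) of 20 Mb stretches of chromosomes 1 to 22 with 50 or more regions, in order along each chromosome; colours alternate between chromosomes. Neighbouring points run together, with the highest stretches on chromosome 13 (1.59) and the lowest at the end of chromosome 10 (-0.84).

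The lines with 1 factor were set beside these regions as a description, since they share the EV controls. Over the 514 opened regions the EV line had a median of the mean level of 0.461 CPM, the EHF line 0.881, the CDX1 line 1.04 and the EHF+CDX1 line 7.06. In 265 of them all 9 libraries of the other lines held at most 3 counts, and in 334 every EHF+CDX1 library was above all 9 by CPM. Among the 28701 regions not called, these numbers were 3391 and 1235. The opened regions were called for a rise over EV, so part of this separation is built in. In the 193 closed regions without a mitochondrial match the medians were 11.4, 7.69, 7.62 and 2.96 CPM. Regions were called by the difference between EV and EHF+CDX1, so single-line levels between them partly follow from the selection. At the TLE4 start the EHF line held 0, 0 and 5 counts and the CDX1 line 0, 0 and 2, and at the ZNF736 start 0, 3 and 0 and 1, 2 and 0. At HNF4G the single lines held 8, 16 and 7 and 10, 15 and 3 counts.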

How the data were processed

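ATAC-seq was performed by the authors on HCT116 cells with empty vector, EHF, CDX1 or both, 3 libraries each. Per the labels and the study's methods, the authors mapped reads to GRCh38/hg38 with Subread 2.0.0, discarded multi-mapping reads, used HOMER 4.7 for peaks in each library, merged them and counted reads with featureCounts 2.0.0. The deposited table holds these counts, not normalized, for the merged regions, which are the same for all libraries. The deposited per-library tables of log2 CPM were not used. There were 0 unused columns of other samples.

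Counts of all 12 libraries were scaled by TMM and fitted with edgeR 4.0.16 (R 4.3.3) by a robust quasi-likelihood test, 1 coefficient per line, over all regions with a CPM of at least 3 in 1 library. P-values were Benjamini-Hochberg adjusted over the 30154 regions tested in the whole table, and a region was called at an adjusted p under 0.05. Regions on chromosomes 1 to 22 outside the introduced exons were then described. CPM were computed with TMM-scaled library sizes. Genes were assigned by the nearest GENCODE 44 protein-coding start within 100 kb. Regions matching mitochondrial DNA (at least 40 bp at 80% identity) and copies elsewhere in hg38 (at least 95% identity over 90% of the length) were found with blastn 2.17.0. Where all EV libraries were at 0, the fold is a bound against 3 counts per EV library, and where none held more than 3 counts, a pooled ratio with an exact 95% interval is given.

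Named were the 12 highest opened regions with at least 10 counts in each EHF+CDX1 library, the 10 lowest closed regions with at least 5 in each EV library, both without overlap of the groups, the 6 and 4 genes with most opened and closed regions, up to 4 genes per list with a called region, the 5 opened and 5 closed regions of highest level, and CDX2, ELF3, HNF4A, KLF5, VIL1, GPA33, KRT20 and CDH17. Some genes and sequences that these rules pick are not reported here. Members and the 33 gene lists were chosen with earlier results of these data known. Tested on data simulated for 28933 regions with the depth of this comparison, the fit recovered 4% of 2-fold and 37% of 4-fold changes. These changes were placed only in regions with a mean expected count of at least 10 per library. All regions were simulated with 1 common dispersion. Recovery in regions of lower counts was not measured. Alternatives were other scalings, DESeq2 1.42.0, limma 3.58.1 with voom and quantile normalisation, other filters, fewer libraries and a replicate block.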

Additional observations from a re-analysis of the deposited data

How the results depend on the processing

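Of 733 called regions (514 opened, 219 closed), scaling by library size alone left 22 (18 and 4, or 81.8% opened against 70.1%), and DESeq2 gave 71 (34 and 37, or 47.9% opened). RLE, upper-quartile and quantile normalisation, other filters, a fit without the robust option, a fit of the 6 libraries alone and leaving out introduced exons and mitochondrial matches gave 602 to 994 calls, within 1.5 times of 733. Leaving out 1 of the 6 libraries gave 40 to 1056 calls, 26 to 779 opened and 14 to 277 closed. The fewest came without EHF+CDX1 replicate 2 (40), then without EV replicate 2 (120), EV replicate 3 (311) and EV replicate 1 (355), and opened calls rose to 779 without EHF+CDX1 replicate 3. Leaving out replicate 1, 2 or 3 of every group gave 193, 54 and 465 calls, with 127, 25 and 317 opened and 66, 29 and 148 closed. With 2 libraries a group the loss of samples is part of each such drop, and the cause was not tested further. With a replicate block there were 1645 calls (855 opened, 790 closed). Correlations of the deviations of same-numbered EV and EHF+CDX1 libraries were 0.0659, 0.0841 and 0.00878. Differently numbered libraries gave -0.0895 to 0.0219, so 0.0659 and 0.0841 lay above that range. With so few counts per region all such correlations are small, and they cannot decide whether the numbers pair the samples. The labels name no pairing, and the main fit used no block. Of 93 called regions that the naming rule picked, 8 kept their call when scaled by library size, 15 without EHF+CDX1 replicate 2, 32 with DESeq2 and 67 with quantile normalisation, and none changed direction. Calls in lists moved with the assignment of genes: within 5 kb of a start the enterocyte list had 0 calls of 33 regions. Depth limits what can be seen: 454 of 514 opened regions had 3 counts or fewer in each EV library.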
